A study of Homo sapiens with 6 samples.

Results

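The accessible chromatin around 5 genes that encode endoderm transcription factors was examined in EndoC-βH3 cells: the forkhead genes FOXA1, FOXA2 and FOXA3 and the nuclear receptor genes HNF4A and HNF4G. A region was taken as a promoter region of one of these genes if any part of it lay within 2 kb of the start of one of the gene's protein-coding transcripts (GENCODE 44, hg38). It was taken as a distal region if it was no promoter region of any gene, and the closest protein-coding start to its middle belonged to one of the 5 genes and lay within 100 kb. This gave 40 regions of 108542 in the table: 10 promoter regions of 20094 and 30 distal regions of 88448. All 5 genes had a promoter region. Distal regions were found for 4 of them, with 19 at FOXA2, 7 at HNF4A, 3 at FOXA1, 1 at HNF4G and 0 at FOXA3, so that 26 of the 30 lay on chromosome 20.

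EndoC-βH3 is a single human beta cell line that carries transgenes for hTERT, SV40 large T antigen and a tamoxifen-activated Cre recombinase (CreER). The senescent group (n = 3 libraries) received 4-hydroxy tamoxifen for 3 weeks, which lets Cre cut out the hTERT and large T transgenes. The non-senescent group (n = 3 libraries) was the untreated control and kept them. Both groups are of the same wild-type label, and each library was made from 100000 cells by ATAC-seq, in which a transposase inserts adapters into open DNA. Treatment, Cre activity, loss of the transgenes and the senescent state go together in this design and cannot be told apart. The labels do not say whether the libraries came from separate cultures, so the errors measure the spread between these libraries, which may be technical. The deposited table holds 1 mean signal per region over all 6 libraries and the authors' log2 fold change with its standard error (SE), and no value for a single library. Signal and fold changes below are therefore those of the authors' table. The depth of each library is unknown here. Positive fold changes are read as higher in senescent cells.

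The FOXA proteins are pioneer factors, which bind their sites in closed chromatin and open it for other factors. They act from the formation of the foregut onward, and FOXA2 with FOXA1 keeps pancreas and liver genes accessible. HNF4A and HNF4G are nuclear receptors of the liver, gut, kidney and islet. HNF4A is transcribed from a promoter named P1, which is the main one in adult liver, and from a distant upstream promoter named P2, which is the one used mainly in beta cells. Mutations of HNF4A or of its P2 promoter cause a monogenic form of diabetes (MODY).

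The sequences on which the comparisons below turn are given first, each 5′ to 3′. The 2 HNF4A promoters are shown because they differed widely in accessibility. These are the 250 bases before the start on the plus strand, from RefSeq (GRCh38.p14), at chr20:44355449-44355698 for P2 and chr20:44400989-44401238 for P1.
HNF4A P2: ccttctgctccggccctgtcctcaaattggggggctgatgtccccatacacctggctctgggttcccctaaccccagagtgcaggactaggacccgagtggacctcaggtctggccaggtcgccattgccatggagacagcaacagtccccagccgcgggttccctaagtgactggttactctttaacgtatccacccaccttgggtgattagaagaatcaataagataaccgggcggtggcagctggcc
HNF4A P1: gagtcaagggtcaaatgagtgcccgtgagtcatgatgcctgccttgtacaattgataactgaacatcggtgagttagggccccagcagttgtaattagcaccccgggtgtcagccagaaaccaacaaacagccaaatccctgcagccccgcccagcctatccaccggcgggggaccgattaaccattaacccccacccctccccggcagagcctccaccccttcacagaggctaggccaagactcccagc
Both have a like base composition, with 58.4% GC and 8 CpG in P2 and 58% GC and 8 CpG in P1.

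The next 4 are the middle 300 bases of distal regions on the plus strand of hg38. They are the HNF4A region of largest change at chr20:44394576-44394875, the FOXA2 region with the smallest adjusted p-value at chr20:22499770-22500069, the FOXA2 region that was higher in senescent cells at chr20:22619319-22619618, and a lower FOXA2 region with a forkhead motif at chr20:22633429-22633728. Capitals mark an exact match to the forkhead motif TGTTTAC, here on the minus strand and thus read as GTAAACA, at bases 165 to 171 of the last sequence.
HNF4A distal, lower: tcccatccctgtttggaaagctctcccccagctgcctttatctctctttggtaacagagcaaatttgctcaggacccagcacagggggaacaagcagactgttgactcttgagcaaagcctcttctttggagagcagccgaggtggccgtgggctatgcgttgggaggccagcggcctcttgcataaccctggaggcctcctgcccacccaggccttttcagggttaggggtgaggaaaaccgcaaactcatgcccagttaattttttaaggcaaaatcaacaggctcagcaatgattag
FOXA2 distal, lower: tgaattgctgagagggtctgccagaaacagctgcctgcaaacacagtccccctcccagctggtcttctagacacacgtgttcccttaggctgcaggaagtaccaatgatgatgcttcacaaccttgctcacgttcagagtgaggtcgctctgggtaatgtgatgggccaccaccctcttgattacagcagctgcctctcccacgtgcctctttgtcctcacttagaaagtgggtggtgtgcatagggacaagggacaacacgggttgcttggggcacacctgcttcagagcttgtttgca
FOXA2 distal, higher: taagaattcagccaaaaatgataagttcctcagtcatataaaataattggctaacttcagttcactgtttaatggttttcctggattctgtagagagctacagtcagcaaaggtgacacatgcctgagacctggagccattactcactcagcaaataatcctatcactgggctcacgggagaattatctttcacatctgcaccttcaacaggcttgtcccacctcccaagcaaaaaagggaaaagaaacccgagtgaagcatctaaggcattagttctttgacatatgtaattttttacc
FOXA2 distal, lower with motif: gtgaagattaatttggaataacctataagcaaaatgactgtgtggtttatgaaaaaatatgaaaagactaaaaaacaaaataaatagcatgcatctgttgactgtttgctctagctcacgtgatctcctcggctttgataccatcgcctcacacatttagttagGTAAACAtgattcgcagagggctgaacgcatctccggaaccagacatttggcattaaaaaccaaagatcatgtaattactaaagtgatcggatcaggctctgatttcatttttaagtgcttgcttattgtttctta
The lower distal region of FOXA1 also held this motif, which is shown with its flanks only, at chr14:37547028-37547057.
FOXA1 distal motif: ttcaacactgtGTAAACAccaaagccttaa

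The first question was how accessible the promoters of the 5 genes were and whether this changed with senescence. The FOXA2 start region and the HNF4A P2 region were among the most open promoters in the table, those of FOXA3 and HNF4G were intermediate, and those of FOXA1 were among the least open. Of the 10 promoter regions, 0 were called higher and 1, at FOXA1, was called lower in senescent cells, at an adjusted p below 0.05 (DESeq2's Wald test with Benjamini-Hochberg adjustment, in the authors' table) together with more than a 1.5-fold change. Among all promoter regions 3.56% were called higher and 9.04% lower. By the adjusted p alone, 1 of the 10 was higher and 4 were lower, beside 10.2% and 34.7% of all promoter regions. The median log2 fold change of the 10 was -0.15, and that of all promoter regions was -0.13. The 95% interval of 6 of the 10 lay wholly within a 1.5-fold change in either direction.

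**Figure D1:**
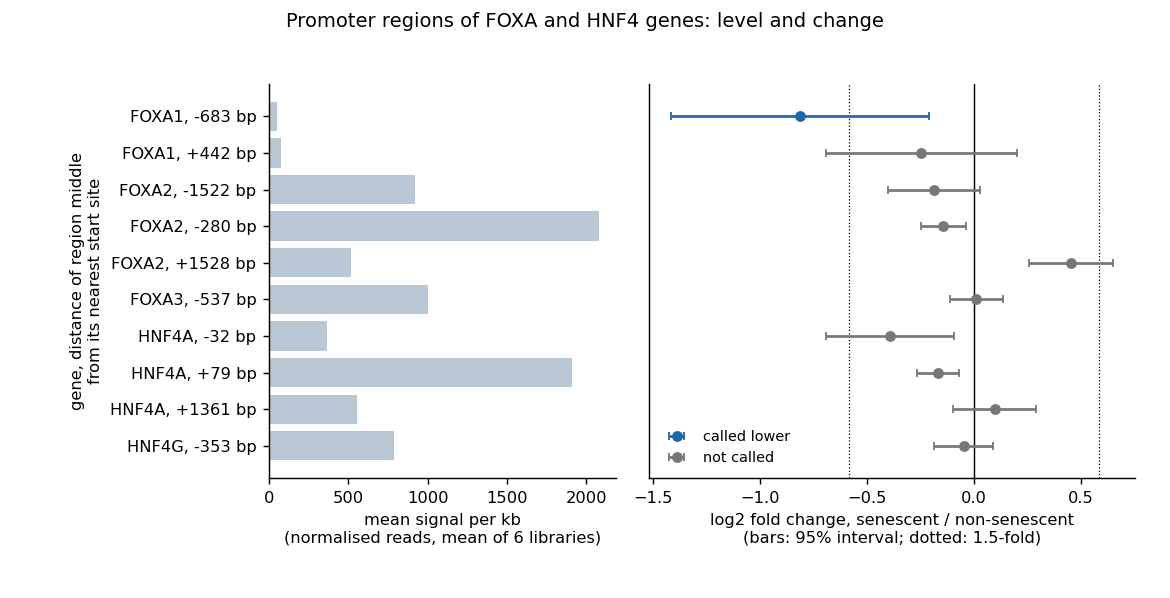
Promoter regions of the 5 genes. Left, mean signal per kb of region (normalised reads, mean of 6 libraries) as bars. Right, log2 fold change of senescent over non-senescent cells as points with 95% intervals, with dotted lines at a 1.5-fold change. Region names give the distance of the region's middle from the gene's nearest start. The start regions of FOXA2 (2084 per kb) and HNF4A P2 (1913 per kb) have the longest bars, and 1 region of FOXA1 (47.9 per kb) is the only one past the lower line and called.

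FOXA2 (chromosome 20, minus strand) had 3 promoter regions. The strongest, at 22584130 to 22585575, covered both annotated starts and had a mean signal of 3013 normalised reads, or 2084 per kb, more than 96.6% of all promoter regions. Its log2 fold change was -0.14 (SE 0.053, adjusted p = 0.0207), which corresponds to group means of 3162 in non-senescent and 2865 in senescent cells. These group means are derived from the authors' mean and fold change and are not values of the table itself. The difference was thus larger than its error but small, and it was 0.03 once the trends of the fold change with signal strength and with base composition (GC content) over all regions were removed. A region of 514 per kb at 22582565 to 22583524, in the FOXA2 coding exon, went the other way, with a log2 fold change of 0.46 (adjusted p = 3.18e-05, SE 0.10) and derived means of 416 and 571. It passed the adjusted p but not the fold limit, and was called higher, at 0.60, when the trend on GC content was removed. Only 605 bp separate these 2 regions, and their 95% intervals did not overlap, although the difference between them was not itself tested. The remaining region, 1522 bp upstream of the nearest start, had a log2 fold change of -0.19 (adjusted p = 0.163, SE 0.11).

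FOXA1 (chromosome 14, minus strand) had 2 weak promoter regions. The one over its start, at 37594318 to 37595298, had 74.2 normalised reads per kb, more than only 4.10% of promoter regions, and its fold change did not pass the test (log2 fold change -0.24, SE 0.23, adjusted p = 0.403). The strongest FOXA2 promoter region had 28.1 times this signal per kb. The second region, at 37595528 to 37596338, had 47.9 reads per kb and was called lower, with derived means of 49.5 and 28.2 and a log2 fold change of -0.81 (adjusted p = 0.0226, SE 0.31, 95% interval -1.41 to -0.21). Both lie between the divergent starts of FOXA1 and TTC6, which are 380 bp apart, or beside them, and the second is closer to TTC6, so the call cannot be given to FOXA1 alone. It was lost at an adjusted p below 0.01, and when the trend on GC content was removed (adjusted p = 0.0616). It was kept when the signal trend was removed (-1.01, adjusted p = 0.00407) and when both trends were (-0.94, adjusted p = 0.00784).

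FOXA3 (chromosome 19), the forkhead member best known in liver, had 1 promoter region, at 45862507 to 45864398. It had 1004 reads per kb, above 78.5% of promoter regions, and differed little between the groups, with derived means of 1891 and 1908 and a log2 fold change of 0.01 (adjusted p = 0.890, SE 0.062, 95% interval -0.11 to 0.13). The log2 fold change was 0.16 with the GC trend removed (adjusted p = 0.0258) and 0.20 with both trends removed (adjusted p = 0.00581). It was thus higher by the adjusted p alone in these settings, and inside the fold limit. This region also covers the start of SYMPK, which encodes a protein of mRNA 3′ end processing and lies 795 bp away, and its middle is closer to SYMPK. The signal cannot be divided between the 2 genes.

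At HNF4A (chromosome 20, plus strand) the 2 promoters are 45.5 kb apart. P2, at 44355238 to 44356531, had 1913 normalised reads per kb, above 95.7% of promoter regions, and P1, at 44400977 to 44401439, had 362 per kb, above 38.0%. P2 thus had 5.28 times the signal of P1 per kb in the mean over both groups. Both were lower in senescent cells by the adjusted p alone and neither passed the fold limit. P2 had a log2 fold change of -0.17 (adjusted p = 0.00302, SE 0.050) with derived means of 2618 and 2334. P1 had one of -0.39 (SE 0.15, adjusted p = 0.0275, 95% interval -0.69 to -0.09) with derived means of 190 and 145. Neither difference held with both trends removed: that of P2 was then 0, with an adjusted p of 0.309 and 0.507 when the signal or the GC trend alone was removed, and that of P1 was -0.31 (adjusted p = 0.0921). The intervals of P1 and P2 overlapped, and whether they changed to a different extent was not tested. A further region 1361 bp inside the P1 transcripts had a log2 fold change of 0.10 (adjusted p = 0.446, SE 0.098). With both trends removed it was 0.25 (adjusted p = 0.0277), inside the fold limit.

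HNF4G (chromosome 8), a close relative of HNF4A that is best known in the gut, had 1 promoter region, at 75406968 to 75408399. It lies over the upstream start of the gene and had 787 reads per kb, above 68.7% of promoter regions. Its derived means were 1146 and 1109 and its log2 fold change was -0.05 (SE 0.069, adjusted p = 0.614, 95% interval -0.18 to 0.09). The sign changed with removal of either trend, to between 0.07 and 0.14. The canonical start, 131.8 kb downstream, had no region over it, and the nearest region was 21668 bp away. In order of the strongest promoter region per kb, the genes were FOXA2, HNF4A, FOXA3, HNF4G and FOXA1, but without values per library it cannot be said which neighbours in this order differ beyond their spread.

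The second question was whether the distal regions around these genes changed. They leaned towards lower accessibility in senescent cells: 26 of the 30 had a negative log2 fold change, where 44.9% of all distal regions did. Of the 30, 6 were called lower (4 at FOXA2, 1 at FOXA1 and 1 at HNF4A) and 1, at FOXA2, was called higher. Among all distal regions the shares ran the other way, with 10.6% called lower and 18.1% higher. By the adjusted p alone 15 were lower and 2 were higher, beside 18.3% and 23.4% of all distal regions. Over the whole table, promoters included, 15.4% of regions were called higher and 10.3% lower. The median log2 fold change of the 30 was -0.39, and that of all distal regions was 0.08. The regions of these genes were stronger (median mean signal 216 normalised reads against 76.8) and richer in GC (50.3% against 44.8%) than distal regions at large, and fold changes in this table depend on both. Their median SE was also smaller (0.14 against 0.23), which by itself lets more regions pass the adjusted p. Of the 2836 distal regions with a mean signal above 1000, stronger than most of the 30, 66.3% were negative and 46.2% lower by the adjusted p alone. Of these, 6.17% were called lower and 4.30% higher. With both trends removed, the medians were -0.31 for the 30 and close to 0 for all distal regions. Regions of 1 gene lie in 1 stretch of chromatin and are not independent, and no test was made over them as a set. Without FOXA2, 2 of the remaining 11 were called lower and 0 higher.

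**Figure D2:**
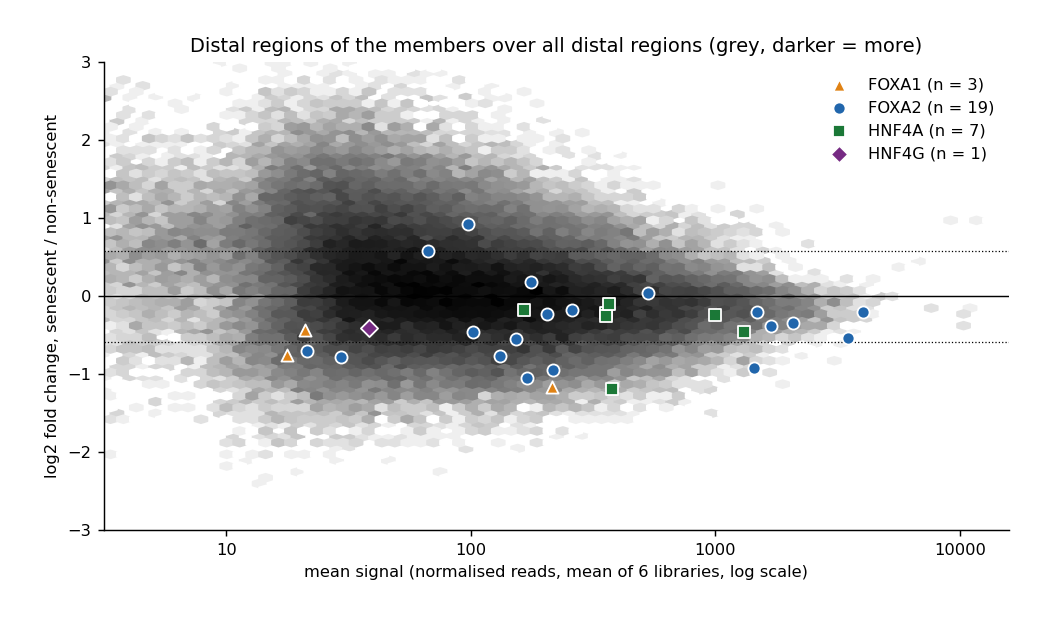
Distal regions of the 4 genes that have any, drawn over those of all 88448 distal regions that fall within the axes (grey, darker where more regions fall). The x axis is mean signal on a log scale (normalised reads, mean of 6 libraries) and the y axis is log2 fold change of senescent over non-senescent cells, with dotted lines at a 1.5-fold change. Most coloured points lie below 0, including all those with a mean signal above 1000, while the grey cloud of weaker regions spreads further above 0 than below it.

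FOXA2 had far more distal regions than most genes. Its 19 compare with a median of 1 per gene over 19663 genes, and 98.9% of genes had fewer. The gene lies in a gene-poor stretch, with the closest protein-coding starts on either side being those of PAX1 at 878.3 kb and SSTR4 at 449.9 kb, and the number of regions assigned to a gene depends on that spacing. Of the 19 regions, 13 lie downstream of the gene and 6 upstream. Negative log2 fold changes were found in 15 of the 19, with a median of -0.38, and of -0.32 with both trends removed.

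The strongest distal regions of FOXA2 lay downstream of it. There were 6 distal regions with a mean signal above 1000, all downstream and all lower by the adjusted p alone, and 1 of them also passed the fold limit. Their median log2 fold change was -0.36, and over the 2836 distal regions of this strength in the table it was -0.12, with 46.2% of these lower by the adjusted p alone. The strongest, at 22489934 to 22491413 and 93899 bp downstream, had a mean signal of 4024, or 2719 per kb, above 99.8% of distal regions. It changed little, with a log2 fold change of -0.19 (adjusted p = 2.46e-05, SE 0.042) and derived means of 4294 and 3754. The next in strength, at 22523199 to 22524663 and 60642 bp downstream, had a mean signal of 3500. Its log2 fold change of -0.54 (adjusted p = 2.20e-30, SE 0.045, derived means 4146 and 2854) was just inside the fold limit, and it was called lower, at -0.68, when the trend on GC content was removed.

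The called one of these 6 lies between those 2, at 22499564 to 22500275, in intergenic DNA 84653 bp downstream of FOXA2. Its derived means were 1885 in non-senescent and 997 in senescent cells, a log2 fold change of -0.92 (adjusted p = 1.04e-42, SE 0.065), the smallest adjusted p of the 40 regions. The neighbouring region 2308 bp further towards FOXA2 had a higher mean signal of 1684 and a log2 fold change of -0.38, and the 95% intervals of the pair did not overlap. The other called downstream region, at 22536569 to 22537519 and 47529 bp from the start, was weaker (mean signal 170) and fell by 1.05 on the log2 scale (SE 0.15, adjusted p = 2.19e-10), from a derived mean of 229 to 111.

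Closer to the gene, 7 regions overlap LINC00261, a long noncoding RNA gene that neighbours FOXA2 and is active in endoderm. None of these 7 was called at the fold limit. By the adjusted p alone, the strongest of them, 6419 bp downstream of FOXA2, was lower (log2 fold change -0.20, adjusted p = 0.00992), and 1 at 24584 bp with a mean signal of only 66.8 was higher (log2 fold change 0.58, SE 0.24, adjusted p = 0.0444). Both lost this with the trends removed (adjusted p = 0.850 and 0.192). The region at 22562349, with a mean signal of 29.5, had a log2 fold change of -0.78 (SE 0.35) that did not pass the test, and it was called lower when either trend or both were removed (-1.04, -0.93 and -1.15).

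Upstream of FOXA2 the 6 regions were weaker and moved both ways. By the adjusted p alone, 3 were lower and 1 was higher. The nearest, at 11314 bp (22596439 to 22597101), had a log2 fold change of -0.55 (adjusted p = 0.00299, SE 0.16), inside the fold limit. It was called lower when the GC trend or both trends were removed (-0.64 and -0.59). At 34013 bp, the region at 22619225 to 22619713 was called higher, with derived means of 66.9 and 127 and a log2 fold change of 0.93 (adjusted p = 0.000103, SE 0.22). Further out, 2 regions were called lower. The one at 45390 bp (22630648 to 22631044) had derived means of 285 and 149 and a log2 fold change of -0.94 (adjusted p = 1.44e-08, SE 0.15). The one at 48123 bp (22633316 to 22633842), which holds the forkhead match shown in capitals above, had derived means of 165 and 97.1 and a log2 fold change of -0.77 (adjusted p = 3.65e-05, SE 0.17). A stronger region only 702 bp from the first of these, at 22629475, had a mean signal of 529 and a log2 fold change of 0.04 (adjusted p = 0.770, SE 0.095). The lower accessibility upstream was therefore not shared by all regions there, and the 95% intervals of these 2 neighbours were apart.

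**Figure D3:**
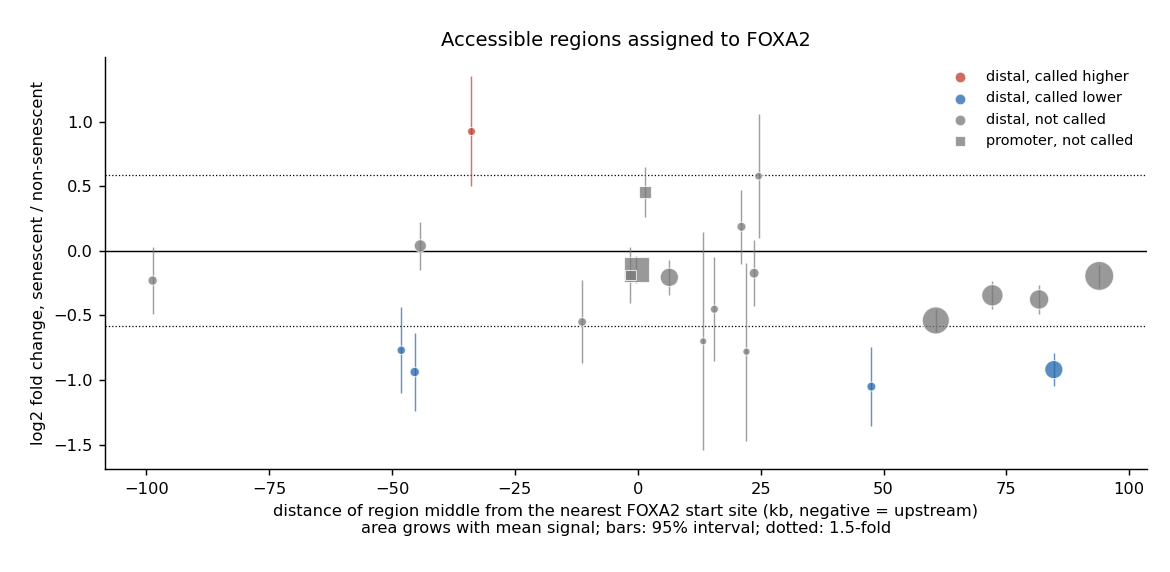
The 22 regions assigned to FOXA2 by distance of their middle from the nearest FOXA2 start (kb, negative upstream) and log2 fold change of senescent over non-senescent cells, with 95% intervals. Area grows with mean signal, squares are promoter regions, and dotted lines mark a 1.5-fold change. The large circles downstream all lie below 0, 4 distal regions are called lower, and the only region called higher lies 34.0 kb upstream.

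HNF4A had 7 distal regions, more than 87.7% of genes had, with the nearest other coding starts being those of R3HDML at 18.7 kb and TTPAL at 74.5 kb. All 7 had a negative log2 fold change, 4 of them past the adjusted p alone. Their median was -0.23, and -0.08 with both trends removed. The region called lower was one of 3 that lie within the gene between P2 and P1 and overlap both HNF4A and the antisense gene HNF4A-AS1. It is at 44394283 to 44395169, 6514 bp before P1, and its derived means were 524 and 230, a log2 fold change of -1.18 (adjusted p = 2.43e-23, SE 0.11). This was the largest fall of the 40 regions by fold change, though its 95% interval overlapped those of the lower regions of FOXA1 and FOXA2. A region of like strength 708 bp away, at 44392975, had a mean signal of 357 and a log2 fold change of -0.21 (adjusted p = 0.0886, SE 0.10), and the 95% intervals of the pair did not overlap.

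The strongest distal region of HNF4A lies in an intron after P1, 9862 bp from it, at 44410803 to 44411724. It had a mean signal of 1313, derived means of 1517 and 1110, and a log2 fold change of -0.45 (adjusted p = 4.46e-12, SE 0.061), which is below the fold limit. An intronic region 15054 bp after P2, with a mean signal of 999, had a log2 fold change of -0.23 (adjusted p = 0.00463, SE 0.073). Another, 8911 bp after P1 with a mean signal of 358, had one of -0.25 (adjusted p = 0.0457, SE 0.10). Neither passed the adjusted p with both trends removed (-0.075 and -0.073, adjusted p = 0.433 and 0.619). With both trends removed, the log2 fold changes were -0.28 for the strongest distal region and -1.09 for the region before P1. Only the latter passed the fold limit.

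**Figure D4:**
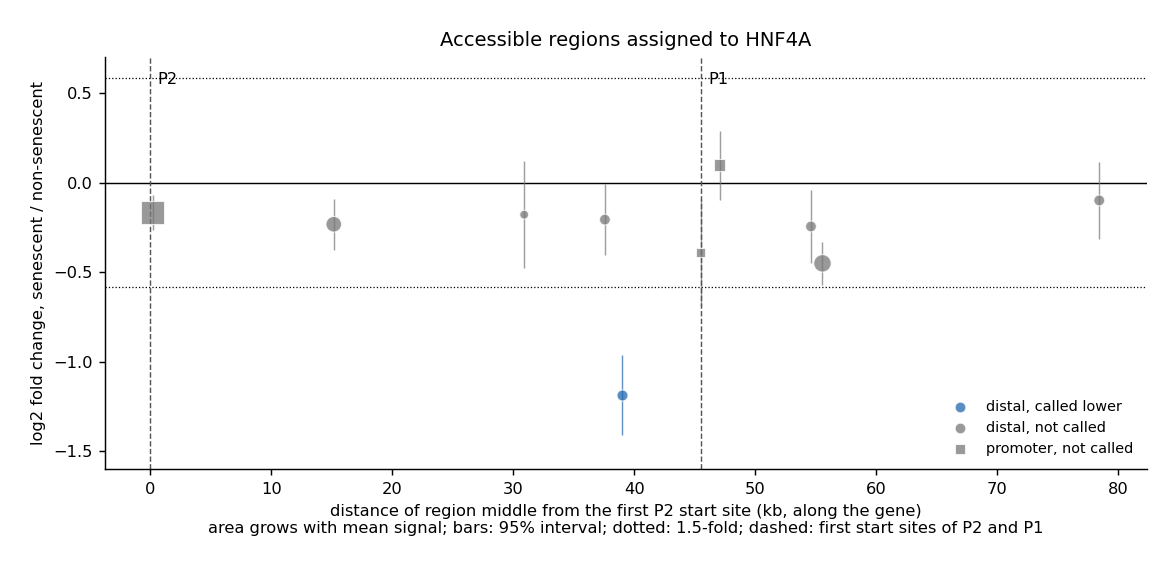
The 10 regions assigned to HNF4A by position along the gene (kb from the first P2 start) and log2 fold change of senescent over non-senescent cells, with 95% intervals. Dashed lines mark P2 and P1, which are 45.5 kb apart, squares are promoter regions, and area grows with mean signal. The region 6514 bp before P1 (log2 fold change -1.18) lies far below its neighbours, which lie between -0.45 and 0.10.

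FOXA1 had 3 distal regions, all of negative fold change. The strongest, at 37546576 to 37547424 and 48250 bp downstream, was called lower, with derived means of 298 and 133 and a log2 fold change of -1.17 (adjusted p = 4.05e-15, SE 0.14). It overlaps an untranslated exon of MIPOL1, whose nearest coding start is 309.9 kb from that of FOXA1, and holds the forkhead match shown above. The other 2 had mean signals of 21.0 and 17.8 with SEs of 0.49 and 0.51, so that their 95% intervals reach past both 0 and a 1.5-fold fall. The 1 distal region of HNF4G, in an intron at 75561537 to 75561791, had a mean signal of 38.3 and a log2 fold change of -0.41 (adjusted p = 0.316, SE 0.32).

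The distance limit bears on FOXA1, FOXA2 and HNF4G. The FOXA2 regions just inside it were those at 93.9 kb downstream (log2 fold change -0.19) and 98.7 kb upstream (-0.23). The first ones beyond it had log2 fold changes of 0.19 at 100.1 kb downstream and -0.14 at 106.5 kb upstream. Beyond the limit, 18 more regions had a FOXA2 start as the nearest one, of which 1 was called higher and 1 lower, with a median log2 fold change of 0.02. FOXA1 had 1 such region, 128.6 kb downstream and with a mean signal of 326. It was not called (log2 fold change -0.086, SE 0.11, adjusted p = 0.568). HNF4G had 4 such regions, of which 1 was called higher, and the closest, at 108.3 kb and with a mean signal of 21.8, was not called (log2 fold change 0.92, SE 0.41, adjusted p = 0.0563).

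To place the 5 genes among related ones, the strongest promoter region of each gene was taken for 3 lists. Over 15493 genes with a promoter region, 1.39% were called higher and 7.02% lower by this value, with a median log2 fold change of -0.14. The endoderm network list holds 20 transcription factors and coactivators, such as EP300, that act with FOXA and HNF4 in foregut, liver and pancreas. Of its 18 genes with a promoter region, 0 were called higher and 4 lower, and by the adjusted p alone 1 was higher and 10 lower, with a median of -0.17. Those called lower included GATA6, a zinc finger factor of early pancreas (log2 fold change -1.06, SE 0.095, adjusted p = 1.47e-26), HHEX, a homeobox factor of foregut and delta cells (-0.87, SE 0.092, adjusted p = 1.43e-19), and TCF7L2, an effector of Wnt signalling (-0.59, SE 0.082, adjusted p = 2.14e-11). The TCF7L2 call was lost when both trends were removed. ONECUT3 and SOX17 had no promoter region.

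The HNF4A target list holds 25 genes, mostly of liver metabolism and secreted proteins, and 20 had a promoter region. Of these, 2 were called higher and 0 lower, and by the adjusted p alone 5 were higher and 6 lower, with a median of -0.02. The 2 were PKLR, pyruvate kinase of liver and islet (log2 fold change 0.73, SE 0.088, adjusted p = 3.66e-15), and TTR, the thyroxine carrier transthyretin (0.71, SE 0.10, adjusted p = 5.31e-11). F9, F12, PCK1, G6PC1 and TF had no promoter region. The third list holds the other 34 forkhead genes. Of its 26 genes with a promoter region, 0 were called higher and 7 lower, and by the adjusted p alone 2 were higher and 14 lower, with a median of -0.39. Those called lower included FOXB1 (log2 fold change -1.13, SE 0.23, adjusted p = 5.86e-06) and FOXF1 (-1.08, SE 0.45, adjusted p = 0.0396). These 2 were weak, with mean signals of 73.5 and 20.3. FOXP2 was also called lower (-1.05, SE 0.071, adjusted p = 3.07e-46), with a mean signal of 1280. The median mean signal of this list was 432, and that of all genes with a promoter region was 840. The strongest promoter regions of FOXA1, FOXA2, FOXA3, HNF4A and HNF4G were not called, with fold changes within the fold limit, and those of some relatives were called, but the difference between them was not tested.

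The cell type was checked by promoter accessibility, which is not expression. All 14 beta cell markers had a promoter region, with mean signals of 183 to 7894, and INS (log2 fold change 1.11, in a region shared with IGF2) and IAPP (0.63) were called higher. The median log2 fold change of the 14 was 0.02, and ABCC8 was lower by the adjusted p alone (-0.47, adjusted p = 1.01e-06). Of the alpha and delta markers 5 of 5 had a region, with SST (-1.08) and HHEX called lower, of exocrine markers 5 of 7, of hepatocyte markers 2 of 5, of fibroblast markers 3 of 4, of immune markers 1 of 4 and of endothelial markers 2 of 3. The defining hepatocyte genes ALB and AFP, the exocrine gene PRSS1, the endothelial gene CDH5 and the immune gene PTPRC had no promoter region. Other markers overlapped the beta cell range. Mean signals were 53.4 to 1340 for alpha and delta, 43.2 to 2101 for exocrine and 469 to 1990 for hepatocyte markers. The medians of these lists were 195, 131 and 1230, beside 1055 for beta cell markers. The hepatocyte values rest on 2 regions, and the stronger, at APOA2, is shared with TOMM40L, so its signal cannot be given to APOA2 alone. Fibroblast, immune and endothelial markers reached at most 142, 43.1 and 117. An open promoter alone thus does not mark a cell type here. A change in the share of some cells and a change in each cell cannot be told apart in such bulk libraries.

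The last comparison concerned regions that hold the motifs these factors are known to bind, anywhere in the genome. Both strands of the middle 300 bases of each region were searched for exact matches to TGTTTAC (forkhead), CAAAGTCCA (HNF4) and GTTAATNAT (HNF1, the factor that shares many targets with HNF4A). The forkhead motif is read by many forkhead proteins, and a match to any of these motifs does not show which factor binds. The motifs share no core. Of the 1620 regions with the HNF4 motif (1.49% of all), 22.4% were called higher and 8.15% lower, with a median log2 fold change of 0.16. Over all regions these shares were 15.4% and 10.3%, and over distal regions, which hold the motif more often than promoter regions do (1.69% against 0.612%), 18.1% and 10.6%. Removal of the GC trend left 18.5% and 10.2% for the motif, beside 13.3% and 11.8% of all regions. The forkhead motif was in 8963 regions (8.26%), with 16.3% called higher and 13.9% lower, and 13.8% and 17.0% after removal of the GC trend. The 2351 regions with the HNF1 motif (2.17%) had 17.0% higher and 11.8% lower as deposited, and 13.9% and 15.9% after it. Regions with each motif are poorer in GC than all regions, with medians of 43.5% (forkhead), 45.1% (HNF4) and 41.7% (HNF1) against 46.9%. Removal of that trend by its construction lowers their values, and no direction is read from the forkhead and HNF1 motifs. For the HNF4 motif, the shares over distal regions alone are not given with that trend removed. Its larger higher share is therefore not set apart from its mostly distal place. Regions are not replicates, and these shares are given without a test.

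**Figure D5:**
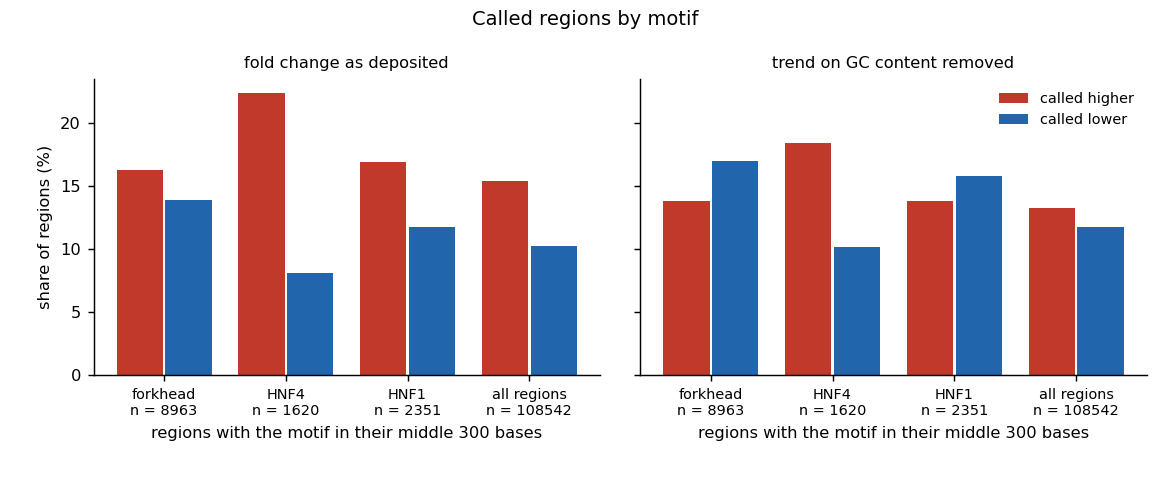
Share of regions called higher (red) or lower (blue) in senescent cells among regions with each motif in their middle 300 bases and among all regions, with the number of regions under each pair of bars. Left, fold changes as deposited. Right, after removal of the trend on GC content. The HNF4 pair keeps the higher bar above the lower one in both panels (22.4% against 8.15%, then 18.5% against 10.2%). The pair for all regions does so too (15.4% against 10.3%, then 13.3% against 11.8%). In every pair the higher bar is shorter and the lower bar longer on the right, and in the forkhead and HNF1 pairs the lower bar is there the longer one.

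Among the 40 regions of the 5 genes, 6 held the forkhead motif, all of them distal, where 9.43% of all distal regions and 3.11% of all promoter regions held it. Of the 7 called distal regions 2 held it, the FOXA1 region at 48250 bp and the FOXA2 region at 48123 bp, and 5 did not. The HNF4 and HNF1 motifs were in the middle 300 bases of 0 of the 40. Over their whole length, 9 of the 40 held the forkhead motif, 1 the HNF4 motif and 2 the HNF1 motif. The HNF4 match was in the FOXA2 region at 22523199. The HNF1 matches were in the FOXA2 regions at 22489934 and at 22536569, and the latter was called lower. Shares over all regions are not given for whole regions. In the RefSeq promoter sequences, 3 of the 5 genes were matched, with 4 entries for FOXA1, FOXA3 and HNF4A, and none of the motifs was found in the 250 bases before these starts, P2 and P1 shown above included. Over 35116 promoters of this length, 2.98% held the forkhead motif, 0.325% the HNF4 motif and 0.723% the HNF1 motif. An absent match says only that these exact letters are not in the window.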

How the data were processed

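ATAC-seq libraries of EndoC-βH3 cells, 3 senescent and 3 non-senescent by their labels, were compared. According to the methods of the study and the submitters' processing notes, reads were trimmed (Trim Galore, Cutadapt), aligned to hg38 with Bowtie2, cleared of mitochondrial reads and duplicates (Picard), shifted for Tn5, and counted under the union of MACS2 peaks. The authors then compared the groups with DESeq2. Versions are not given in the sources used here.

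The deposited signal is the authors' mean over the 6 libraries of counts divided by size factors. The deposited log2 fold change and its SE, the score (Wald statistic), and the p-value and adjusted p-value come from the authors' model. It was checked that score, p-value and Benjamini-Hochberg adjustment follow from each other over the 108542 regions. Whether fold changes were shrunken is not stated. The table holds no counts or values per library, so no new test could be fitted, and depth per library is unknown. These columns are comparisons by the authors and are used as such. The numerator is not named. It was taken as the senescent group from the study's labelling and the lower MKI67 promoter.

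Python 3.11.15 with pandas 2.3.3 and pysam 0.24.0 was used, with GENCODE 44 starts. Group means were derived from mean signal and fold change, with equal groups and an unshrunken fold change assumed. Intervals are 95% normal intervals from the SE. Trends were running medians over 1000 regions on each side. Named were all promoter regions, the strongest and the called distal regions of each gene, and up to 4 called genes per direction and list, of which some are not reported here though they are in the counts. Other regions named for their position, strength or neighbours were chosen after their values were seen. The genes, lists, rules and alternatives were chosen with earlier results of these data known. Alternatives were another adjusted p, no fold limit, a Wald test against a 1.5-fold change, a minimum mean signal, other windows and limits, and removal of trends. Calls on simulated data were checked first.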

Additional observations from a re-analysis of the deposited data

How the results depend on the processing

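Calls at the 5 genes depended mainly on the fold limit. Without it, promoter regions called higher went from 0 to 1 and lower from 1 to 4, distal regions called higher from 1 to 2 and lower from 6 to 15, the listed network genes higher from 2 to 8 and lower from 11 to 30, and all regions called lower from 11151 to 23184. The promoter call at FOXA1 was lost (0) at an adjusted p below 0.01, under a Wald test against a 1.5-fold change, when weak regions (mean signal below 50) were left out, and with the GC trend removed. It was kept with the signal trend or both trends removed. Removal of the GC trend, or of both trends, gave 1 promoter region called higher, at FOXA2. Under the Wald test against a 1.5-fold change 0 distal regions were higher, and the whole table had 4168 higher and 1992 lower regions in place of 16755 and 11151. A minimum signal of 50 gave 9658 higher. With starts of all genes in place of protein-coding ones, only 1 of the 30 distal regions kept its gene and 0 were called in either direction, since noncoding genes lie closer. Without FOXA2, an alternative added after seeing the data, 0 distal regions were higher and 2 lower.

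Of 280 values of single regions under alternatives, 245 kept their call with no change of sign (1 of them, HNF4A P2 with both trends removed, came to 0), 23 gained and 6 lost a call, and 6 changed sign. The sign changes were FOXA2 at 22629475 (-0.10, GC trend removed), FOXA2 at 22584130 (0.026, both trends), HNF4A at 44433586 (0.018, signal trend) and the HNF4G promoter (0.068, 0.10 and 0.14 for signal, GC and both trends). The cause was not tested. Leaving out single libraries was not possible, and the part of depth was not tested, since it is unknown here. No paired analysis was possible because values of single libraries were not in the table used here.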
